A study of Mus musculus with 2 samples.

Results

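The miR-379/410 cluster is the distal, densely packed miRNA cluster of the imprinted Dlk1-Dio3 domain on mouse chromosome 12. It was examined here in small RNA libraries of embryonic kidney. Members were all genes counted in both tables whose annotation lies, on either strand, in the chromosome 12 window (mm10) that holds the cluster. The first of them starts at 109709060 and the last ends at 109747960. This rule, based on position and not on the measurements, gave 38 of the 1973 genes counted. Of these, 34 are annotated on the plus strand and 4 on the minus strand (Mir299b, Gm25750, Gm25252 and Gm24321). Plus-strand reads were used for every member, because the cluster is transcribed from the plus strand. There was 1 group, kidney of B6NCrl mouse embryos at 14.5 days of gestation, for which the labels give no treatment. It had 2 biological replicates of 2 kidneys each, collected on different days, and libraries were limited to RNA of under 30 nucleotides. The labels name a single pup for each replicate, and elsewhere pooled males and females and 1 donor identifier common to both. The number of embryos in each replicate is therefore uncertain, and the spread between replicates may be partly technical.

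In the Dlk1-Dio3 domain the protein-coding genes Dlk1, Rtl1 and Dio3 are expressed from the paternal chromosome. The non-coding RNAs Meg3, Rian and Mirg and the miRNAs are expressed from the maternal chromosome, and the miRNAs are thought to be cut from long transcripts that run through the domain. The distal cluster is specific to placental mammals and is best known from the brain and from the metabolic adaptation of the newborn liver. A miRNA hairpin gives a 5p and a 3p arm, and the seed of an arm, its bases 2 to 8, is the main determinant of the messenger RNAs it recognizes.

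The mature arms that RefSeq gives for the 10 members with most reads are shown first, since their seeds bear on which messages these RNAs could recognize. The list adds miR-1193-5p, which has the seed of miR-379-5p, and miR-300-3p, which resembles miR-381-3p. RefSeq sequences (GRCm38.p6) were found for 37 of the 38 members through the plus-strand miRNA at each position, 69 arms in all. A single arm was found for Mir487b (5p), Mir376c (5p), Mir539 (5p), Mir485 (3p) and Mir453. Any other arm of these members is left out here and below. The sequences run 5′ to 3′, with the seed in capitals. The counts are per gene and do not say which arm was read.
miR-411-5p: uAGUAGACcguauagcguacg
miR-411-3p: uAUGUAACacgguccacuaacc
miR-379-5p: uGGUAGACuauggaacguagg
miR-379-3p: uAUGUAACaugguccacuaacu
miR-1193-5p: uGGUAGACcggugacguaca
miR-487b-5p: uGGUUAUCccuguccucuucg
miR-409-5p: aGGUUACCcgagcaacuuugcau
miR-409-3p: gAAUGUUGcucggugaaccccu
miR-541-5p: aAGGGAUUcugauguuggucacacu
miR-541-3p: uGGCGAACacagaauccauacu
miR-369-5p: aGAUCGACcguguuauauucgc
miR-369-3p: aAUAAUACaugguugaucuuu
miR-382-5p: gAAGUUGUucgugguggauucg
miR-382-3p: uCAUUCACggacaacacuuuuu
miR-376a-5p: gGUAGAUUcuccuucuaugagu
miR-376a-3p: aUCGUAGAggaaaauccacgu
miR-299a-5p: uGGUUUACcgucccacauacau
miR-299a-3p: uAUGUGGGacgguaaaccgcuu
miR-381-5p: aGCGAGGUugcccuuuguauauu
miR-381-3p: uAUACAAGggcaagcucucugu
miR-300-3p: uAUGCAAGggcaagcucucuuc

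The 69 arms held 64 different seeds, so the arms found carried many distinct seeds and few repeated ones. Of these seeds, 54 were found in no other mouse miRNA of the RefSeq table outside the cluster, and 10 were. One of the 10 is the seed of miR-329-3p, which miR-362-3p also has. Among the arms found, only 5 seeds occurred in more than 1 member, and 9 members held them. Some members had a single arm, as given above, so further shared seeds may have been missed. The seed AUGUAAC is common to miR-379-3p and miR-411-3p, and GGUAGAC to miR-379-5p and miR-1193-5p. The other 3 shared seeds were GGUUGUC in miR-494-5p and miR-410-5p, GGUUGCC in miR-453 and miR-496a-5p, and GGUUGAC in miR-758-5p and miR-1197-5p. The letters GGUU, picked after the sequences were seen and looked for anywhere in an arm on its own strand, occurred in 15 of the 35 5p arms of the members (42.9%). They occurred in 72 of 660 5p arms of other mouse miRNAs (10.9%). In 3p arms they occurred in 2 of 33 members (6.06%) and 46 of 674 others (6.82%). Some of these arms share a seed, so they are not independent.

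Libraries held 5202588 counts on the annotated strand of miRNA genes in replicate 1 and 3683978 in replicate 2. Levels are given as CPM, counts per 1000000 of these. For a count of 0, an approximate 95% upper limit of 3 counts was used, which is not a strict maximum. It was 0.577 CPM in replicate 1 and 0.814 CPM in replicate 2. Reads that mapped to several places, 28.3% and 27.5% of all reads, belong to no gene. The tissue label was checked on marker miRNAs. The posterior mesoderm list (miR-10 and miR-196 genes) had 5 of 5 genes detected and summed to 244757 and 247352 CPM, and the kidney epithelium list had 8 of 9 detected. The neural list had 0 of 5 counted genes detected, at 1.35 and 1.90 CPM in sum, and all 3 Mir124a genes were at 0. Copies of miR-124 and miR-9 lie at several places in the genome, so these low counts are uncertain. The skeletal muscle list had 1 of 3 genes detected, Mir206 at 72.3 and 53.5 CPM, while Mir1a-1 and Mir133a-1 were at 0. Both counts of 0 are uncertain in the same way, as the names of these genes mark numbered copies.

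The cluster was broadly expressed in embryonic kidney. With detection set at 10 or more counts in each replicate, 33 of the 38 members (86.8%) were detected, against 17.7% of all 1973 genes. Genes outside the cluster were counted on their annotated strand, here and for the median and ranks below. Of the 34 plus-strand members, which were counted in the same way, 29 were detected. Members held 73881 counts in replicate 1 and 57707 in replicate 2. These were 1.42% (95% exact Clopper-Pearson interval 1.41 to 1.43) and 1.57% (1.55 to 1.58) of the counts on the annotated strand, a mean of 1.49% ± 0.103 (SD, n = 2). The intervals cover counting error only, as copies made by PCR were not removed by molecular identifiers, and they did not overlap. The tissue is a mixture of cells, so few cells with a high level and many with a low level cannot be told apart. The median detected member was at 139 CPM and the median of all 349 detected genes at 117 CPM. The most abundant member, Mir411, ranked 51 among all genes, with 50 genes above it. Of the members, 8 were among the 100 most abundant genes and 20 among the 200 most abundant.

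Counts were concentrated in a small number of members. Mir411 (chromosome 12, 109710175 to 109710256) had 13258 and 11562 counts, or 2548 CPM in replicate 1 and 3138 CPM in replicate 2. It alone held 17.9% of the cluster's counts in replicate 1 and 20.0% in replicate 2. Its level was 1.69 and 1.82 times that of the next member in each replicate. Mir487b (109727333 to 109727414) followed at 1504 and 1729 CPM. Mir379 (109709060 to 109709125), the first hairpin of the cluster and the one that gives it its name, was at 1399 and 1553 CPM. Mir487b was above Mir379 in both replicates, although their ranges over the replicates overlapped. Gm24321, read as Mir409, was at 1452 and 1336 CPM, above Mir379 in replicate 1 and below it in replicate 2. Its range lay below that of Mir487b. Mir541 (109742409 to 109742498) was at 1249 and 1260 CPM, below Gm24321 in both replicates. Mir369 (109743418 to 109743496) was at 1115 and 1238 CPM, just below Mir541. These were the 6 members above 1000 CPM.

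The 4 next members completed the 10 most abundant. Mir382 (109733771 to 109733846), studied in fibrosis of kidney tubules, was at 828 and 956 CPM. Gm25252, read as Mir376a, was at 668 and 726 CPM. Transcripts of the miR-376 genes are known for adenosine-to-inosine editing, which counts per gene do not show. Mir299b, read as Mir299a, was at 585 and 631 CPM. Mir381 (109726822 to 109726896), one of the members linked to the growth of neuronal dendrites, was at 471 and 564 CPM. The order from Mir382 to Mir381 was the same in both replicates, without overlap of their ranges. The 5 most abundant members held 57.5% ± 0.110 of the cluster's counts and the 10 most abundant 83.5% ± 0.431 (SD, n = 2). The lower 19 of the 38 members held 3.38% ± 0.114.

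**Figure D1:**
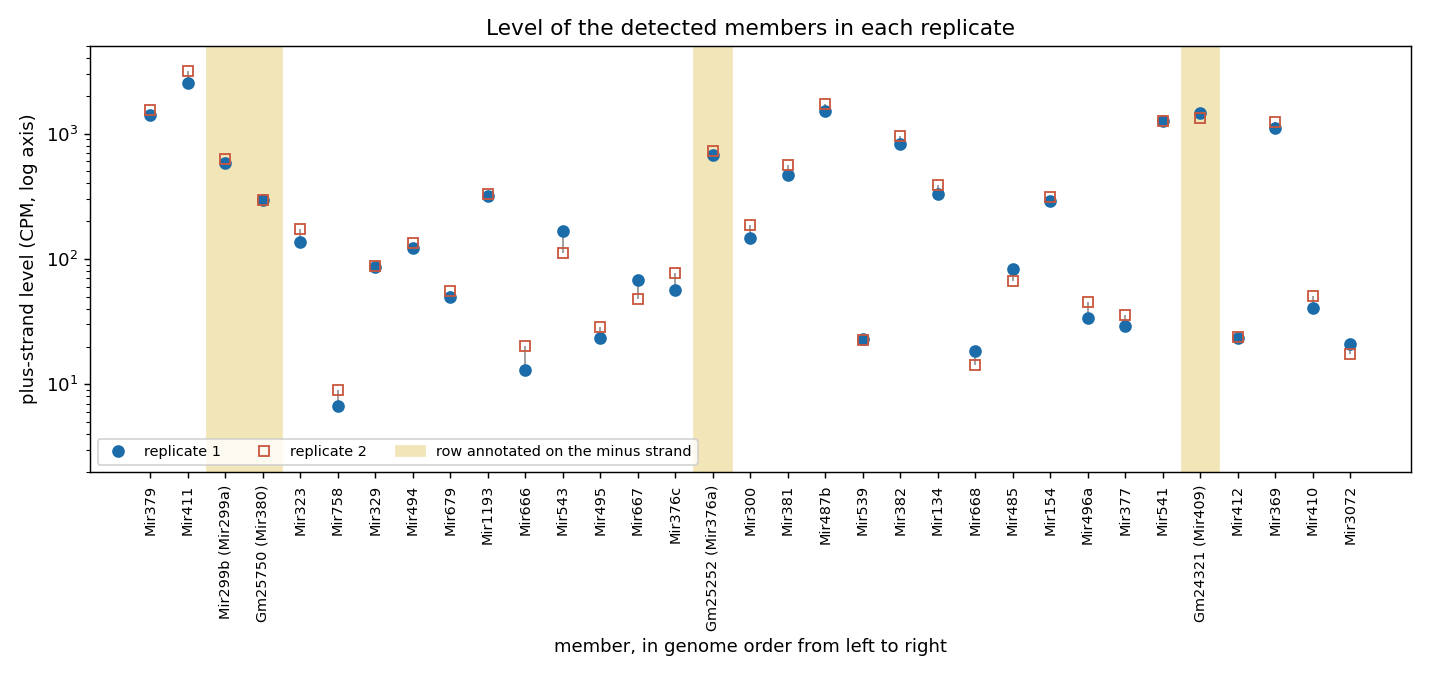
Plus-strand level in CPM on a log axis for each detected member in genome order, with circles for replicate 1 and squares for replicate 2, and shading for the rows annotated on the minus strand. Levels run from 7.84 CPM (mean of Mir758) to 2843 CPM (mean of Mir411), while the 2 replicates of a member lie close together.

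Among the members of middle and low level are several with described functions. Of the 33 detected members, 12 lay between 100 and 1000 CPM in the mean and 15 at or below 100. Mir134 (109734139 to 109734209), a regulator of dendritic spine size in neurons, was at 331 and 388 CPM. Mir1193, whose 5p arm has the seed of miR-379-5p, was at 316 and 329 CPM, and Mir154 at 291 and 314 CPM. Mir300 was at 146 and 186 CPM, and its 3p arm shown above resembles that of Mir381. Mir323 was at 136 and 172 CPM, Mir543 at 167 and 111 CPM and Mir494 at 123 and 133 CPM. Mir543 was thus above Mir323 in replicate 1 and below it in replicate 2. Mir329, another member linked to dendrite growth, was at 86.1 and 87.4 CPM, and Mir485, which acts at synapses, at 83.4 and 67.0 CPM. Mir377, described in mesangial cells of the diabetic kidney, was at 29.0 and 35.8 CPM. Mir410, the other hairpin in the cluster's name, was at 40.4 and 50.5 CPM, far below Mir379.

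The lowest detected members were Mir758 at 6.73 and 8.96 CPM, Mir668 at 18.5 and 14.1 CPM and Mir666 at 13.1 and 20.4 CPM. From the lowest to the highest detected member, levels spanned 8.33 ± 0.05 on the scale of log2(CPM + 1) (SD, n = 2). In mean CPM, Mir411 exceeded Mir758 363-fold. Both were picked as the extremes of these counts, so the size is a description. Mir411 and Mir758 share a stretch of 21 bases, gguccacuaacccucaguauc (for Mir411, chr12:109710235-109710255, plus strand), of which 12 bases lie in miR-411-3p and 9 in miR-758-3p. No mature arm holds the whole stretch. Mir376c, at 56.5 and 76.5 CPM, shares 31 bases with Mir376b, and 18 of them lie in miR-376c-5p. None of the arms found lies wholly within a shared stretch. Shorter reads could still fit both places, so counts of these 3 members keep some uncertainty, of a size that was not measured. No other member shared 21 bases with another miRNA transcript of M21 at a different position.

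The 5 undetected members had at most 10 counts. Mir1197 had 10 and 9 counts and missed the minimum by 1 count in replicate 2. Mir544 had 1 and 3 counts and Gm27379 had 0 and 1. Mir654 and Mir453 had 0 counts in both replicates, for which the approximate upper limits given above are 0.577 and 0.814 CPM. Mir654 lies between Mir376c at 66.5 CPM and Gm25252 at 697 CPM in the mean. Mir453 lies between Mir485 at 75.2 CPM and Mir154 at 303 CPM. Both thus had detected members on either side, though Mir376b, which was not measured, lies between Mir654 and Gm25252. Gm27379 and Mir544 lie next to each other.

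The 4 rows on the minus strand carried a sizeable share of the cluster, and nearly all of their reads were on the plus strand. Together they held 20.1% ± 1.45 of the cluster's counts (SD, n = 2). In GENCODE M21 each lies opposite a plus-strand miRNA that has no row of its own in the tables. Mir299b (109710645 to 109710693) lies opposite Mir299a, Gm25750 (109711779 to 109711890) opposite Mir380, Gm25252 (109723756 to 109723875) opposite Mir376a and Gm24321 (109743158 to 109743237) opposite Mir409. Plus-strand counts were 3042 and 2326 at Mir299b, 1536 and 1083 at Gm25750, 3477 and 2675 at Gm25252, and 7554 and 4921 at Gm24321. On their own strand the 3 Gm rows had 0 counts in both replicates. At the 34 plus-strand members there was not a single minus-strand count. The cluster's reads came from 1 strand, apart from a few at Mir299b.

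Counting each gene on its own strand would leave these reads out. The cluster's share would then be 1.19% ± 0.104 in place of 1.49%. Mir409, of rank 4 in the cluster through the row Gm24321, would not be seen at all, nor would Mir380 and Mir376a. The 4 rows made up 15.8% ± 0.777 of all opposite-strand counts in the tables (SD, n = 2). They were 4 of only 11 genes with at least 10 opposite-strand counts in each replicate and more counts there than on their own strand. Of the 44 miRNA genes that M21 places in the window, 6 have no row. Besides the 4 plus-strand partners these are Mir376b and Gm44322, which were not measured here.

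Level and position along the cluster had a weak rank relation. The hairpins cover 38901 bases with a median gap of 590 bases between neighbouring annotations, from 20 to 4368. Spearman's rho between start position and CPM over the 33 detected members was -0.145 in replicate 1 and -0.159 in replicate 2. Between neighbouring detected members (32 pairs) rho of mean levels was -0.0011. Mir412, for example, at 23.3 and 23.6 CPM, lies between Gm24321 and Mir369, which both exceeded 1000 CPM, at gaps of 51 and 49 bases. These coefficients are descriptions across genes of the same 2 libraries, which are not independent.

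**Figure D2:**
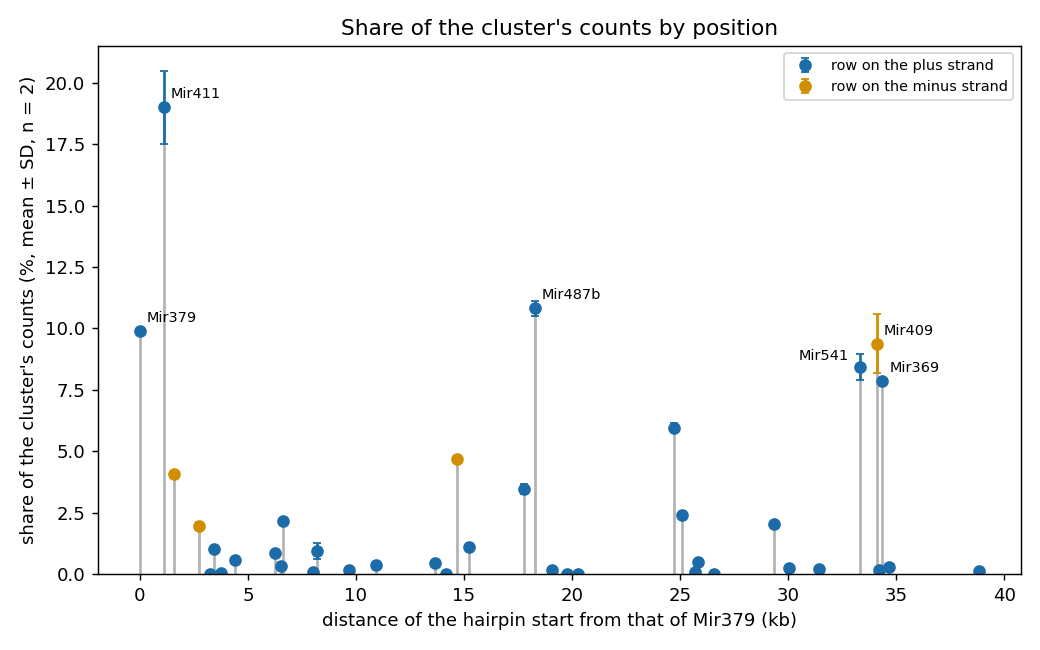
Share of the cluster's counts (mean ± SD over 2 replicates, in percent) against the distance of each hairpin's start from that of Mir379 in kilobases, with rows annotated on the minus strand in a second colour and named by the plus-strand miRNA. High shares lie near both ends and in the middle, with Mir411 highest and low members beside high ones.

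The hairpins fall into a part with an annotated host transcript and a part without one. Mirg, a long non-coding RNA (109729764 to 109749460), contains the last 14 members from Mir382 to Mir3072. No non-miRNA transcript on the plus strand contains the first 24 in M21. Of the 14 in Mirg, 13 were detected and held 37.8% ± 1.52 of the cluster's counts. Of the 24 before it, 20 were detected and held 62.2% ± 1.52 (SD, n = 2). Their medians were 75.2 and 147 CPM. Within Mirg, 5 members lie in exons of every transcript that contains them, from 16.3 CPM (Mir668) to 892 CPM (Mir382). A further 6 lie in introns, of which 5 were detected, from 19.1 CPM (Mir3072) to 1394 CPM (Gm24321). For Mir377, Mir412 and Mir369 the transcripts differ. Exonic and intronic hairpins thus overlapped widely in level.

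The rank relations of level with base composition and predicted folding were weak as well. For 32 detected members with a RefSeq hairpin, GC content ran from 29.1% (Mir376c) to 72.3% (Mir3072) with a median of 43.0%, below the 51.7% median of all 1005 hairpins in the table. Spearman's rho with mean CPM was -0.142 for GC content, 0.151 for the folding energy per base from RNAfold and 0.0073 for hairpin length. These are descriptions over members that share their libraries.

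Members with a common seed differed in level. Those of the seed AUGUAAC, Mir379 and Mir411, summed to 3947 and 4692 CPM, 4320 ± 526 in the mean (SD, n = 2), if all their reads were of the 3p arm. For GGUAGAC, Mir379 and Mir1193 summed to 1715 and 1882 CPM, with Mir379 far above Mir1193. For GGUUGUC, Mir494 and Mir410 summed to 164 and 183 CPM. For GGUUGCC the counts came from Mir496a at 34.0 and 45.1 CPM, since Mir453 was at 0. For GGUUGAC, Mir758 and the undetected Mir1197 summed to 8.65 and 11.4 CPM. The 9 members with a shared seed among the arms found held 32.5% ± 1.49 of the cluster's counts, most of it in Mir411 and Mir379. These sums are upper limits for an arm, since the tables do not separate arms.

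The other miRNAs of the domain, upstream around Meg3, Rtl1 and Rian (chromosome 12, from Mir1906-1 at 109544541 to the start of the distal window), were set beside the cluster. Of 20 genes there, 14 were detected, and they held 0.483% and 0.549% of counts, 0.516% ± 0.0464 in the mean (SD, n = 2). Unlike the cluster, these genes were all counted on their annotated strand. For Mir3071, annotated on the minus strand, this gave 65.5 and 82.0 CPM, and plus-strand reads at its position are not included. By these counts both parts had a higher share in replicate 2, and the distal cluster held more in each. The detected upstream genes had a median of 183 CPM and ran from 4.29 CPM (Mir1188) to 1734 CPM (Mir127). Mir127, which lies antisense to Rtl1 and limits it in placenta, was the leading upstream gene as counted, between Mir411 and Mir487b in mean level. The distribution of levels overlapped that of the cluster almost completely, and no test of the difference was made.

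**Figure D3:**
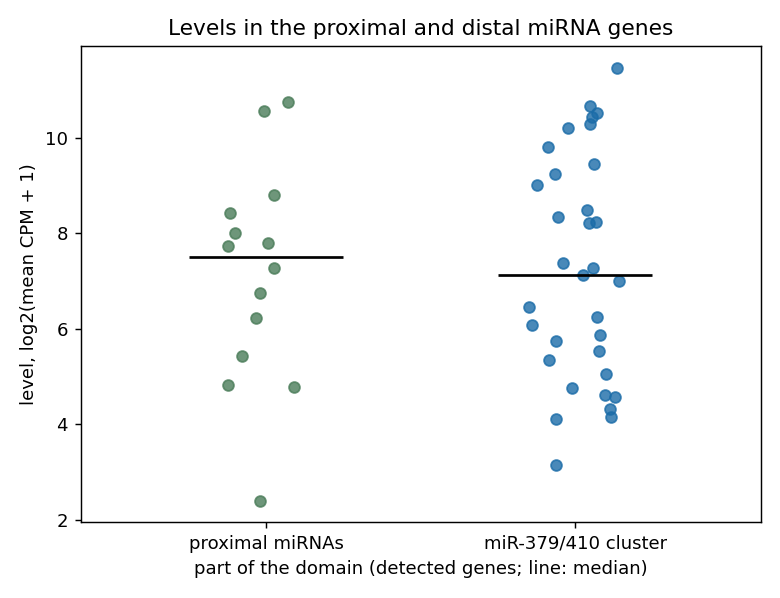
Level as log2(mean CPM + 1) of the 14 detected upstream (proximal) and 33 detected distal miRNA genes of the domain, each point a gene and each line a median. Upstream genes were counted on their annotated strand and distal genes on the plus strand. The points overlap over nearly the whole range, with medians at 183 and 139 CPM.

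The replicates were compared member by member. For each, the split of its counts between the libraries was set against that of their TMM-scaled totals in an exact binomial test (two-sided), with Benjamini-Hochberg adjustment over all 349 detected genes. The test sets 1 library against the other with counting error only, not conditions. Of the 33 detected members, 14 were higher in replicate 2 at an adjusted p below 0.05, against 26.6% of all genes tested, and 4 were lower, against 27.5%. None reached a log2 ratio of 1 in either direction, which 0.86% of genes did as higher and 2.29% as lower. At an unadjusted p below 0.05 there were 20 members, against 57.6% of all genes tested. In edgeR's exact test, which allowed for an assumed 0.2 coefficient of variation between replicates, 0 members passed, against 0.573% of all genes tested. The median log2 ratio of replicate 2 over replicate 1 was 0.15 for the members, 0.16 for the upstream genes and 0.02 for all genes tested. Of the members, 25 had a ratio above 0 and 8 below, and Mir541 moved from above to below with DESeq2 size factors. After TMM scaling, 32 of the 33 differed by less than 1.5-fold, against 84.5% of all detected genes. The exception was Mir666, and Mir543 lay just under this limit, which it passed with totals alone or DESeq2 size factors. Across members Pearson's r of log2(CPM + 1) between the replicates was 0.994, over genes that are not independent.

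Mir411 differed most in CPM between the replicates. Its log2 ratio was 0.30 (95% exact interval 0.27 to 0.34), with an adjusted p of 6.12e-60 in the exact binomial test. Mir487b at 0.20 and Mir379 at 0.15 were also higher in replicate 2, while Mir541, at 0.02, did not pass. The members of highest ratio with a mean count of at least 100 were Mir376c at 0.44 (exact test, adjusted p = 0.000691), Mir496a at 0.41 (0.0196) and Mir300 at 0.35 (1.19e-05). Mir666, with 68 and 75 counts, reached 0.64 (exact interval 0.15 to 1.14). A smaller number of members went the other way. Mir543 fell from 870 to 410 counts, a log2 ratio of -0.58 (exact interval -0.76 to -0.41, adjusted p = 2.93e-11). Mir667, with 353 and 176 counts, was at -0.50 (exact test, adjusted p = 0.000374) and Mir485 at -0.31 (0.0133). Gm24321, read as Mir409, was at -0.12 (2.88e-05). Neighbours did not always move together. Mir543 lies 74 bases from Mir666, and these had the lowest and the highest ratio of the cluster.

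Markers of other cell types also differed between the libraries. The hepatocyte miRNA Mir122 had 293 counts in replicate 1 and 3957 in replicate 2, or 56.3 and 1074 CPM. The erythroid list, with 3 of 3 genes detected, summed to 161 and 77.6 CPM. The kidney epithelium list summed to 27152 and 23978 CPM, and the smooth muscle and stroma list to 24805 and 25420 CPM. Within the epithelial list Mir429 went from 15302 to 12772 CPM, while Mir192 went from 125 to 224 CPM and Mir194-2 from 71.1 to 129 CPM. The part of these differences in the members' ratios was not tested. Collection day and replicate cannot be told apart, since each day gave 1 library.

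**Figure D4:**
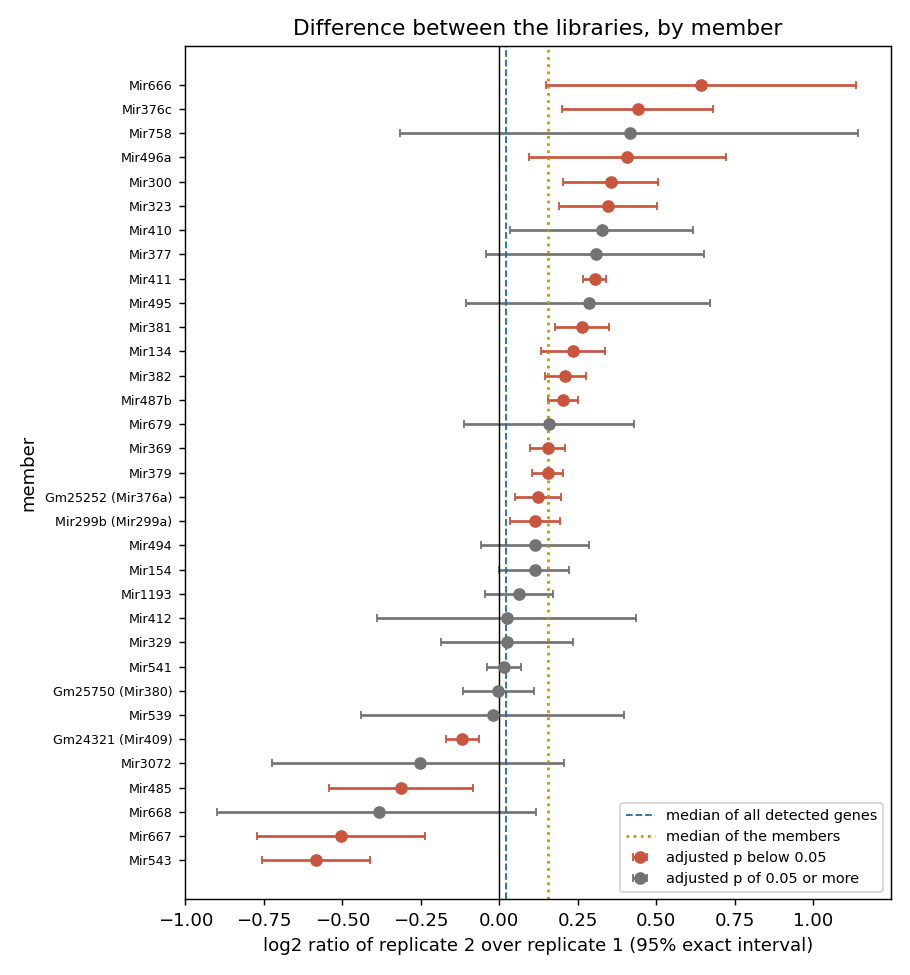
Log2 ratio of replicate 2 over replicate 1 for each detected member, with bars for the 95% exact interval, red for an adjusted p below 0.05, and vertical lines for the medians of the members (0.15) and of all detected genes (0.02). Most points lie to the right of 0 and all lie between -0.58 (Mir543) and 0.64 (Mir666).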

How the data were processed

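Small RNA was sequenced in 2 replicates of embryonic kidney. The authors deposited a table of raw counts per annotated miRNA gene for each. Per the deposited file descriptions, reads were aligned to mm10 and counted on GENCODE M4. For aligner and counter, names were not given in the sources used here. Columns hold counts on both strands, on the strand of the gene and on the opposite strand. Tallies in 4 rows without a gene (49.2% and 44.6% of reads) stayed out of totals and tests.

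Symbols and positions came from GENCODE M21, on the same assembly. It matched 1894 of 1973 identifiers, and the other 79 had at most 1 count. For the 4 minus-strand members the opposite-strand count was used, in CPM and tests. The CPM total is that of the annotated strand. A read stands for 1 small RNA, so levels were not divided by length. Log levels used a pseudocount of 1 CPM. A quasi-likelihood test needs a contrast between groups, of which there is none. Replicates differed beyond counting noise (chi-square statistic 46650 with 348 degrees of freedom). They were treated as 2 replicates as labelled, since this statistic does not tell biological from technical spread. Shared stretches of 21 bases were sought among M21 miRNA transcripts on both strands.

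The members, lists, tests and the rule for named genes were chosen with earlier results of these data known. The rule took the 10 members of highest and 3 of lowest level, the 3 of highest and 3 of lowest ratio with a mean count of at least 100, members with a shared seed, undetected members and minus-strand rows. Members outside it, named with a role or as a neighbour, were picked with their values known. The alternatives tried were scalings, count minimums, pseudocounts, denominators and strands, each replicate alone, and edgeR's exact test. Tools were RNAfold 2.7.2, scipy 1.17.1 under Python 3.11.15, and DESeq2 1.42.0 and edgeR 4.0.16 under R 4.3.3.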

Additional observations from a re-analysis of the deposited data

Results flagged for a closer look

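Mir299b had 4 counts on its own, minus strand in replicate 1 and 3 in replicate 2. The 4 counts exceed the 3 used as the approximate limit for a count of 0, and they lie outside the plus-strand reads used for the cluster. They stand beside 3042 plus-strand counts at the same place in replicate 1.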

How the results depend on the processing

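The cluster's share of 1.49% was 1.19% with plus-strand annotated members alone, 1.21% without Mir411 and 0.78% with all reads as denominator. It was 1.47% with unstranded counts and ran from 1.42% to 1.57% with either replicate left out. A denominator with the opposite-strand counts of the 4 minus-strand rows, added after the data were examined, gave 1.49%. The counts of 14 members higher and 4 lower in replicate 2 were both 0 in edgeR's exact test with an assumed coefficient of variation of 0.2, and 14 to 15 and 4 under the other scalings, count minimums and strand choices. Scaling without the domain's own genes, also added afterwards, gave 15 and 4. Of the 23 named members with a ratio, 16 lost their call in the edgeR test, and Mir410 gained one with unstranded counts (log2 ratio 0.33, exact binomial test, adjusted p = 0.0453). Mir541, not called, changed sign with DESeq2 size factors (-0.0050). The median ratio of 0.15 was 0.12 without the members that share 21 bases and 0.13 with DESeq2 size factors. The range of levels, 8.33 on the log2 scale, was 7.60 at a minimum of 50 counts, 8.49 with a pseudocount of 0.1 CPM and 7.79 with 5 CPM. It ran from 8.30 to 8.37 with either replicate left out. The number detected, 33, ran from 29 (plus-strand annotated members) to 34. Spearman's rho with position was -0.117 over all plus-strand annotated members. Counts per gene leave out reads that mapped to several places. As the number of embryos is uncertain, the spread of the 2 libraries cannot be taken as the spread between animals. No paired analysis was possible because there is 1 group. The replicate comparison leaves no library to drop.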
